A study of Homo sapiens with 6 samples.

Results

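Respiratory complex I, the NADH to ubiquinone oxidoreductase that opens the mitochondrial respiratory chain, was described here through 46 protein-coding genes of the 28395 genes in the deposited count table. They are the genes whose symbols start with NDUFA, NDUFB, NDUFC, NDUFS, NDUFV or NDUFAF, without NDUFA4 and NDUFA4L2, which belong to complex IV, and without pseudogenes. All 46 were found in the table. They comprised 37 structural subunits, 8 assembly factors of the NDUFAF series and the readthrough gene NDUFC2-KCTD14.

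All libraries came from TC28a2, an immortalised chondrocyte line of human origin, collected 48 h after cells received either a control vector or a ZEB1 overexpression vector. ZEB1 is a zinc finger transcription factor that binds E-boxes and represses epithelial genes. Each group had 3 libraries, and nothing in the labels says that they came from separate cultures, so a p-value here reflects the spread among these libraries, which may be technical. RNA was read by DRUG-seq, a low-cost form of RNA-seq, in bulk, so fewer cells that express a gene and less RNA per cell cannot be told apart. Both groups were transfected, and no untransfected cells were analysed here.

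Complex I takes electrons from NADH in the mitochondrial matrix and passes them to ubiquinone while it pumps protons across the inner membrane. It is L-shaped. A matrix arm holds the flavin, the iron-sulfur clusters and the ubiquinone site, and a membrane arm holds the proton channels, whose core subunits are encoded by mitochondrial DNA. Around this core sit many small accessory subunits, all encoded in the nucleus, and the arms are put together as separate modules with the help of assembly factors. Chondrocytes live at low oxygen and are known for relying on glycolysis more than on respiration.

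The control libraries held 5359200 to 5878640 counts, and the ZEB1 libraries 1277632, 1621270 and 3316228 counts in replicates 1, 2 and 3. ZEB1 itself, which checks the labels, had 32.6, 20.8 and 21.4 CPM (the gene's counts relative to the library's total on the usual fixed scale, with the total adjusted by TMM, a method that corrects for differences in composition) in the controls and 12267, 14047 and 6894 CPM with its vector, a log2 fold change of 8.79 (edgeR adjusted p = 2.37e-13). The 10 chondrocyte markers summed to 56.3 to 86.8 CPM in the controls and 61.1 to 78.2 CPM with ZEB1. SOX9 was the 1 with enough counts to be tested (log2 fold change 0.011, SE 0.21), and COL9A1 had no count in any library. ACAN had 7, 0 and 6 counts and COL2A1 3, 0 and 8 in the deeper controls, and both had 0 with ZEB1. COL11A2 had 1, 0 and 0 control counts against 0, 0 and 5, and COMP 0, 0 and 1 against 0, 0 and 3. Such counts are too few to compare. The 4 endothelial markers summed to 1.44 to 2.77 CPM in the controls and 3.55 to 8.64 CPM with ZEB1, and PECAM1, the 1 of them tested, had 9, 6 and 11 control counts against 4, 12 and 22 (log2 fold change 2.04, SE 0.87). The 5 leukocyte markers summed to 1.80 to 3.10 CPM in the controls and 0 to 1.19 CPM with ZEB1, with CD3E at 0, and the 4 epithelial markers to 0.481 to 2.55 and 0 to 1.78 CPM, with KRT5 at 0. The part of these markers in the results was not tested.

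The 7 complex I subunits encoded by mitochondrial DNA could not be followed. The table lists all 37 genes of the mitochondrial genome at 0 in all 6 libraries, although every cell with respiration uses them, so these zeros do not measure their RNA.

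Most nuclear complex I transcripts were higher in the ZEB1 libraries, with a wide spread between replicates and with no member past the adjusted threshold. Of the 46 genes, 45 had enough counts to be tested, and 36 of these 45 had a positive log2 fold change (48.5% of all 11329 tested genes did). Their median was 0.45, against -0.014 over all tested genes, with a range from -0.29 to 1.12. None of the 45 passed an edgeR adjusted p of 0.05 over all genes tested (0.00883% of all genes did, which was ZEB1 alone), and the smallest adjusted p of a member was 0.161. At an unadjusted edgeR p under 0.05, 25 of the 45 were higher (5.83% of all tested genes were) and 0 were lower (3.57% of all tested genes were). In 11 members the 3 ZEB1 libraries all lay above the 3 controls (6.96% of all tested genes did so), and in 0 they all lay below (8.16% of all tested genes).

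How many members were called differed between tools and with ZEB1 replicate 3 left out. DESeq2 gave an adjusted p to 1982 genes, 32 of them members, and called 13 of these members higher. Of the genes it adjusted, 9.33% were called higher and 0.807% lower. limma-voom called 1, NDUFB6 (0.177% higher and 0.0177% lower over all genes), and with quality weights for the libraries it called 11 (1.3% higher and 0.0883% lower). Without ZEB1 replicate 3, edgeR called 17 higher (2.4% of all genes were higher and 0.984% lower), and without a filter on low counts it called 8 (0.6% of all genes were higher and 0.0928% lower). It called 0 members after thinning to the smallest library (0.0109% of all genes), where 23 were higher at an unadjusted p under 0.05 (5.66% of all genes). No member was called lower in any of these.

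Members also varied from library to library within a group. The median log2 CPM of the 45 members, relative to the mean of the controls, was -0.14, 0.18 and -0.027 for the controls in the order of their replicate numbers, and 0.76, 0.38 and 0.11 for the ZEB1 libraries. The value of ZEB1 replicate 3 lay below that of control replicate 2, so the groups overlapped. Members with a value above the control mean numbered 5, 41 and 17 in the controls and 38, 37 and 33 in the ZEB1 libraries. As a share of all counts in a library, which needs no scaling between libraries, the 46 genes took 0.833%, 0.991% and 0.889% in the controls and 1.26%, 1.11% and 0.946% in the ZEB1 libraries. The larger shares came from the 2 ZEB1 libraries with the fewest counts and the most ZEB1. Of these 2, replicate 1 had fewer counts and the larger share, and replicate 2 had more ZEB1 (14047 against 12267 CPM). With 3 ZEB1 libraries, depth cannot be told apart from the amount of ZEB1, and neither was tested. With ZEB1 replicates 1 and 2 left out, the median was 0.093, with 3 of 45 members higher (2.93% of all genes in that fit) and 1 lower (4.63%) by unadjusted p under 0.05. With all libraries thinned to 1277632 counts the median was 0.42.

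**Figure D1:**
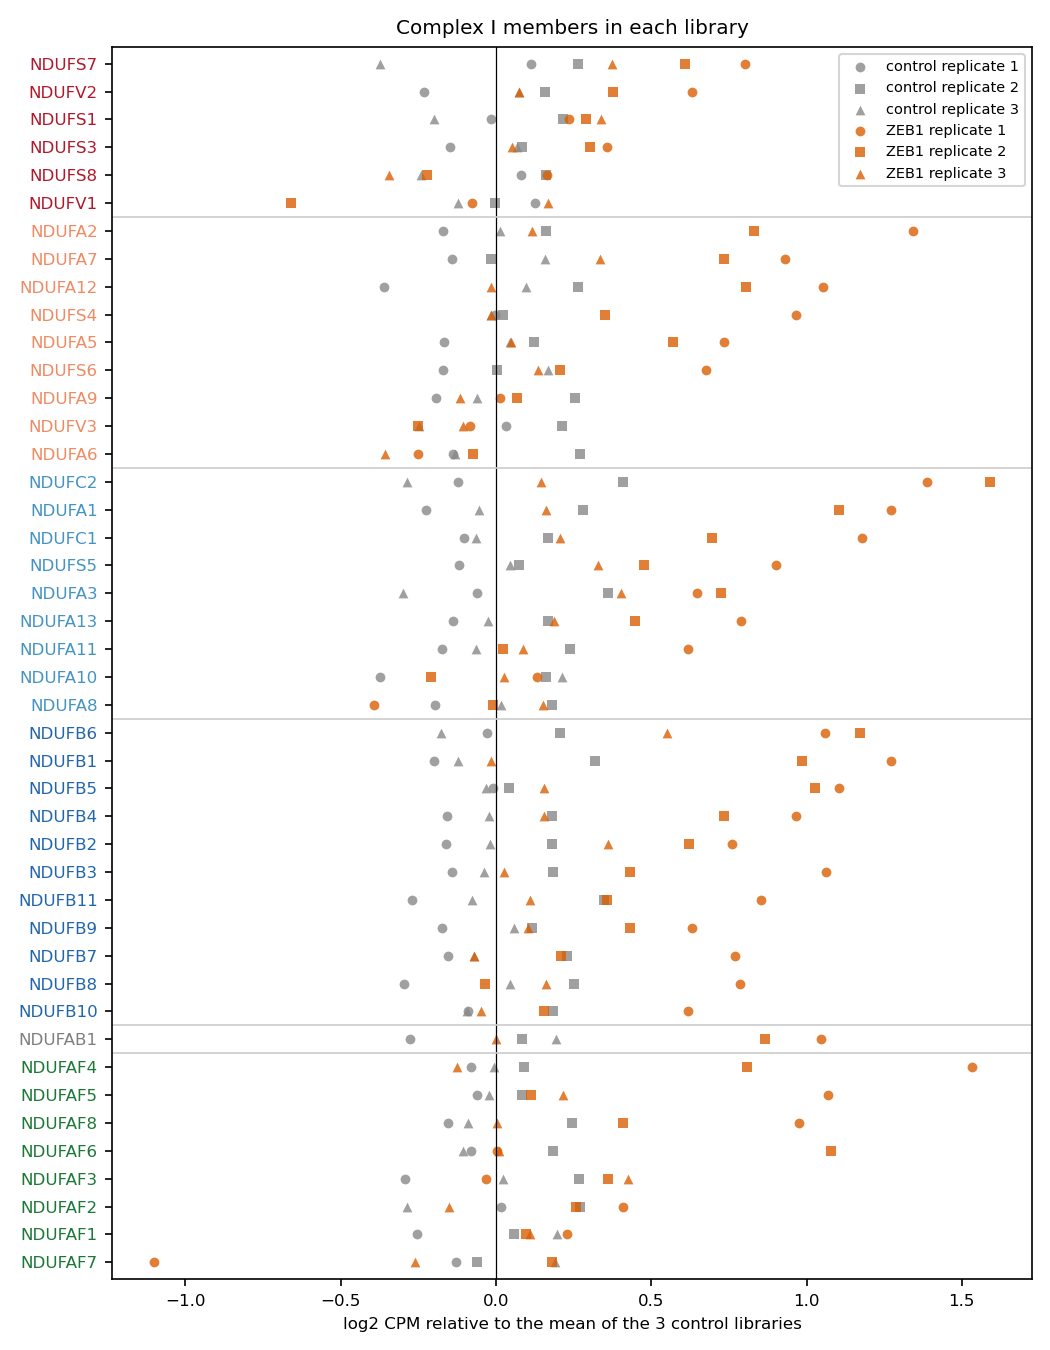
Each row is 1 of 44 tested complex I genes, grouped by role, and each point is 1 library. The horizontal axis is log2 CPM relative to the mean of the 3 controls (grey), and ZEB1 libraries are orange. ZEB1 replicates 1 and 2 sit to the right in most rows of the membrane arm, ZEB1 replicate 3 lies nearer to the controls, and several core subunits, such as NDUFV1 and NDUFS8, show no such shift.

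The members are next described by their role in the complex. The 20 tested subunits of the membrane arm had a median log2 fold change of 0.56. At an unadjusted edgeR p under 0.05, 14 of them were higher (5.83% of all tested genes were). The 9 accessory subunits of the matrix arm had a median of 0.46, with 6 higher at that threshold. The 7 core subunits of the matrix arm, which carry the flavin and the iron-sulfur clusters, had a median of 0.23, with 2 higher, and the 8 NDUFAF assembly factors had 0.36, with 2 higher. The difference between these groups was not tested, since the genes of a group share their libraries.

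The core subunits of the matrix arm are the catalytic part of the enzyme. NDUFV1, which binds NADH and the flavin, had 210.0, 192 and 177 CPM in control replicates 1, 2 and 3 and 182, 122 and 216 CPM in ZEB1 replicates 1, 2 and 3. ZEB1 replicate 2 was the lowest and replicate 3 the highest of all 6, and the log2 fold change of -0.15 (SE 0.18) was smaller than its error. NDUFV2, its iron-sulfur partner, had 154, 202 and 190.1 CPM in the controls and 279.9, 235 and 190.1 CPM with ZEB1, a log2 fold change of 0.36 (SE 0.17). ZEB1 replicates 1 and 2 lay above the controls and replicate 3 among them. NDUFS1, the large subunit that holds several iron-sulfur clusters, had 58.2, 68.4 and 51.2 CPM in the controls and 69.3, 72.0 and 74.5 CPM with ZEB1. All 3 ZEB1 libraries lay above the controls, by a small margin, with a log2 fold change of 0.28 (SE 0.20).

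NDUFS7, which carries the last iron-sulfur cluster before ubiquinone, had 124, 137 and 88.1 CPM in the controls and 199.9, 175 and 148 CPM with ZEB1. Its groups did not overlap, and its log2 fold change of 0.57 (SE 0.18, edgeR adjusted p = 0.273) was the highest of the 7. NDUFS8, an iron-sulfur subunit, had 163, 172 and 130.1 CPM in the controls and 172, 132 and 121 CPM with ZEB1, a log2 fold change of -0.14 (SE 0.18), and its groups overlapped. NDUFS3 had 134, 158 and 156 CPM in the controls and 191, 184 and 154 CPM with ZEB1, a log2 fold change of 0.23 (SE 0.16). Of the 7 core subunits, NDUFS7 and NDUFV2 had an unadjusted edgeR p under 0.05, and both were higher (5.83% of all tested genes were).

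The distal membrane arm is the far end of the proton-pumping arm, built with the NDUFB subunits. All 11 of them had positive log2 fold changes, from 0.26 (SE 0.17) for NDUFB10 to 0.94 (SE 0.19) for NDUFB6, with a median of 0.55. Over all scalings tried, the lowest value of any of the 11 was 0.11, and that of NDUFB6 was 0.80. At an unadjusted edgeR p under 0.05, 8 of the 11 were higher (5.83% of all tested genes were). In 3 of them, NDUFB6, NDUFB2 and NDUFB5, all ZEB1 libraries lay above all controls (6.96% of all tested genes did so).

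NDUFB6, a small accessory subunit anchored in the membrane, had the smallest p of all members. Its values were 86.9, 102 and 78.5 CPM in control replicates 1, 2 and 3 and 186, 201 and 130.2 CPM in ZEB1 replicates 1, 2 and 3. Every ZEB1 library lay above every control, replicate 3 by the smallest margin. The group means were 89.3 ± 12.2 CPM and 172 ± 37.1 CPM (SD, n = 3), and the fitted difference was 1.91-fold (edgeR adjusted p = 0.161). The log2 fold change stayed between 0.80 and 1.11 when single libraries were left out, and was 0.54 with ZEB1 replicate 3 as the only ZEB1 library. A ratio of counts within a library is free of scaling. Counts of the core subunit NDUFV1 stood to those of NDUFB6 at 2.42, 1.87 and 2.25 in the controls and 0.981, 0.606 and 1.66 in the ZEB1 libraries. For NDUFS8 over NDUFB6 the ratios were 1.87, 1.68 and 1.66 and 0.928, 0.657 and 0.931. Both ratios were lower in every ZEB1 library than in every control, but this was not so for most ratios. Of 9 ratios computed between members or groups, chosen after their values were seen and not tested, 3 had no overlap and 6 did. Core matrix arm counts over distal membrane arm counts were 0.371, 0.316 and 0.321 in the controls and 0.236, 0.263 and 0.337 in the ZEB1 libraries, with ZEB1 replicate 3 among the controls. NDUFV1 over NDUFA1 was 0.718, 0.462 and 0.537 in the controls and 0.221, 0.165 and 0.566 in the ZEB1 libraries, again with replicate 3 among the controls. The same library overlapped the controls in the other 4.

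NDUFB2 had 198, 250.5 and 218 CPM in the controls and 375, 341 and 284 CPM with ZEB1, and its groups did not overlap (log2 fold change 0.58, SE 0.16). NDUFB5 had 56.8, 58.9 and 56.0 CPM in the controls, which lay close together, and 124, 117 and 63.7 CPM with ZEB1 (log2 fold change 0.80, SE 0.23). Here ZEB1 replicates 1 and 2 stood at about the same height and replicate 3 just above the controls. NDUFB4 had 149, 189 and 164 CPM in the controls and 326, 277 and 185 CPM with ZEB1, and control replicate 2 lay above ZEB1 replicate 3 (log2 fold change 0.64, SE 0.19). The other 7 had log2 fold changes of 0.80 for NDUFB1, 0.55 for NDUFB3, 0.44 for NDUFB11, 0.40 for NDUFB9, 0.33 for NDUFB7, 0.32 for NDUFB8 and 0.26 for NDUFB10. NDUFB7 faces the intermembrane space and NDUFB9 binds the acyl carrier protein. NDUFB1, NDUFB7 and NDUFB10 had log2 values below 0 when ZEB1 replicate 3 was the only ZEB1 library.

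The 9 subunits of the proximal membrane arm lie near its joint with the matrix arm. Of these, 7 had positive log2 fold changes (48.5% of all tested genes did), and the median was 0.57. At an unadjusted edgeR p under 0.05, 6 were higher (5.83% of all tested genes were). NDUFA1, a short protein with a single membrane span encoded on the X chromosome, had 292, 415 and 329 CPM in the controls and 825, 736 and 382 CPM with ZEB1. ZEB1 replicates 1 and 2 lay well above the controls, while replicate 3 lay below control replicate 2. The means were 345 ± 63.0 CPM and 648 ± 235 CPM (SD, n = 3), a fitted 1.87-fold difference (edgeR adjusted p = 0.174). NDUFC1 had 137, 165 and 141 CPM in the controls and 333, 239 and 169.8 CPM with ZEB1, with no overlap (log2 fold change 0.73, SE 0.20). NDUFS5, which faces the intermembrane space, had 602, 689 and 676 CPM in the controls and 1223, 912 and 822 CPM with ZEB1, again with no overlap (log2 fold change 0.59, SE 0.16).

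NDUFC2 had the highest log2 fold change of all members, 1.12 (SE 0.36), but rested on few counts. The controls held 103, 132 and 90 and the ZEB1 libraries 54, 86 and 67. Its span lies within that of the readthrough gene NDUFC2-KCTD14, which had 0 counts in each of the 6 libraries and was not tested. A count of 0 allows up to 3 counts, for counting error only. By library totals without the TMM adjustment, that is 0.510 CPM in the deepest and 2.35 CPM in the shallowest library. How reads shared by both genes were assigned is not given in the sources used here, so the level of NDUFC2 is uncertain. The remaining proximal subunits had log2 fold changes of 0.57 for NDUFA3 and 0.49 for NDUFA13, both without overlap between groups, 0.25 for NDUFA11, -0.035 for NDUFA10 and -0.058 for NDUFA8. The values of NDUFA10, which has a nucleoside kinase fold, and of NDUFA8, which faces the intermembrane space, were smaller than their standard errors.

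**Figure D2:**
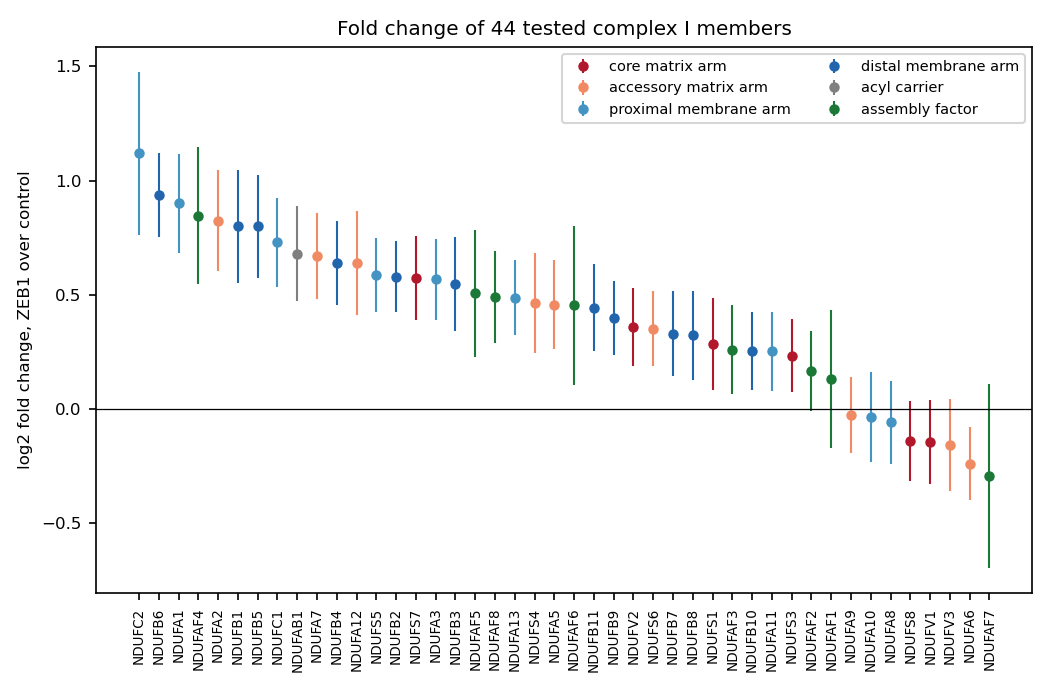
Points are the edgeR log2 fold changes of 44 tested genes, ZEB1 over control, in falling order, with bars of 1 standard error and colours for the role in the complex. Blue membrane-arm subunits fill most of the left side, and the lowest values on the right belong to NDUFAF7, NDUFA6, NDUFV3, NDUFV1 and NDUFS8.

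The accessory subunits of the matrix arm surround its core. NDUFA2, which has a thioredoxin-like fold, had 114, 143 and 129 CPM in the controls and 326, 228 and 139 CPM with ZEB1, where replicate 3 lay below control replicate 2 (log2 fold change 0.82, SE 0.22). NDUFA7 had 71.5, 78.2 and 88.3 CPM in the controls and 151, 132 and 99.8 CPM with ZEB1, with no overlap (log2 fold change 0.67, SE 0.19). NDUFA12, the last-added subunit whose place NDUFAF2 holds during assembly, had a log2 fold change of 0.64. NDUFS4, a subunit known from Leigh syndrome, had 0.47, NDUFA5 0.46 and the zinc-binding NDUFS6 0.35. These 6 each had an unadjusted edgeR p under 0.05 (5.83% of all tested genes were higher at that threshold). NDUFA6 had 210.4, 279.6 and 211 CPM in the controls and 195, 219.9 and 181 CPM with ZEB1, where 1 ZEB1 library was above and 2 were below the lower controls, so the groups overlapped (log2 fold change -0.24, SE 0.16). NDUFV3 had 75.2, 85.3 and 61.8 CPM in the controls and 69.3, 61.7 and 68.2 CPM with ZEB1, values that overlapped throughout (log2 fold change -0.16, SE 0.20). NDUFA9, which binds a dinucleotide, had -0.026 (SE 0.16).

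NDUFAB1, the mitochondrial acyl carrier protein, sits in both arms, on NDUFA6 in the matrix arm and on NDUFB9 in the membrane arm. It had 193, 248 and 268 CPM in the controls and 484, 427 and 234 CPM with ZEB1, a log2 fold change of 0.68 (SE 0.21, edgeR adjusted p = 0.251). ZEB1 replicates 1 and 2 lay above all controls and replicate 3 among them. Its partners had log2 fold changes of 0.40 for NDUFB9 and -0.24 for NDUFA6. Within libraries, NDUFA6 counts stood to NDUFAB1 counts at 1.09, 1.13 and 0.789 in the controls and 0.402, 0.515 and 0.771 with ZEB1. Every ZEB1 ratio was below every control ratio, by a narrow margin for ZEB1 replicate 3. NDUFB9 over NDUFAB1 was 4.02, 3.82 and 3.40 in the controls and 2.80, 2.77 and 4.02 with ZEB1, where replicate 3 lay within the controls.

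The NDUFAF genes encode assembly factors, which help to build the complex and are not part of it. Of the 8, 7 had positive log2 fold changes (48.5% of all tested genes did). NDUFAF4 and NDUFAF8 were higher at an unadjusted edgeR p under 0.05 (5.83% of all tested genes were). NDUFAF4, which acts with NDUFAF3 on the ubiquinone-binding module, had 36.6, 41.2 and 38.5 CPM in the controls and 113, 68.2 and 35.4 CPM with ZEB1. Its log2 fold change of 0.85 (SE 0.30) rested on ZEB1 replicates 1 and 2, since replicate 3 lay below all controls. NDUFAF3 itself had 0.26 (SE 0.20). NDUFAF5, which hydroxylates an arginine of NDUFS7, had 0.51 (SE 0.28) and its partner NDUFAF8 0.49 (SE 0.20). NDUFAF7, an arginine methyltransferase, had 14.4, 15.1 and 18.1 CPM in the controls and 7.11, 18.0 and 13.1 CPM with ZEB1. It rested on 90, 83 and 111 control counts and on 8, 28 and 44 in the shallower ZEB1 libraries. Its log2 fold change of -0.29 (SE 0.40) was the lowest of all members, and its groups overlapped. NDUFAF6 had 0.45 (SE 0.35), NDUFAF2 0.17 (SE 0.18) and NDUFAF1 0.13 (SE 0.30).

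A further 13 assembly factors without the NDUFAF symbol had a median log2 fold change of 0.066, with 8 positive and 5 negative values. At an unadjusted edgeR p under 0.05, 3 were higher (5.83% of all tested genes were) and 1 lower (3.57% of all tested genes). TMEM126B, which joins NDUFAF1 in the complex that builds the membrane arm, had 36.4, 46.1 and 50.4 CPM in the controls and 105, 109 and 35.7 CPM with ZEB1 (log2 fold change 0.87, SE 0.30). TMEM186, of the same complex, went the other way (log2 fold change -1.18, SE 0.47). It had 11.7, 16.4 and 16.6 CPM in the controls and 4.44, 4.50 and 9.53 CPM with ZEB1. These rested on 73, 90 and 102 control counts and on 5, 7 and 32 in the shallower ZEB1 libraries. Neither passed over all genes (edgeR adjusted p = 0.317 and 0.411).

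The other complexes of oxidative phosphorylation are set beside these values from lists of their nuclear subunits and factors. The lists of complexes II, III, IV and V had medians of 0.55, 0.50, 0.55 and 0.51, against 0.45 for complex I. No difference between complexes was tested. The lists are not alike, since those of complexes I and II include assembly factors and those of complexes III, IV and V hold subunits only. The 37 structural subunits of complex I alone had a median of 0.46. At an unadjusted edgeR p under 0.05, 3 of 8, 5 of 9, 9 of 11 and 14 of 17 were higher and 0 lower in any of these 4. Of all tested genes, 5.83% were higher and 3.57% lower at that threshold. Their members with the smallest p were SDHB (0.89) and SDHD (0.89) of complex II, UQCRQ (1.03) and UQCRB (0.84) of complex III, COX7B (1.05) and COX7A2 (0.89) of complex IV, and ATP5F1C (0.87) and ATP5MK (0.76) of complex V. Regulators of mitochondrial gene expression had 10 tested members, with a median of -0.19, and 0 of them had an unadjusted edgeR p under 0.05. GABPA, a subunit of an ETS-family factor, had the smallest p, with 16.7, 29.2 and 20.4 CPM in the controls and 11.6, 15.4 and 13.7 CPM with ZEB1, all below the controls (log2 fold change -0.69, SE 0.37). TFAM, which packages mitochondrial DNA, had 129, 128 and 132 CPM in the controls and 156, 159 and 151 CPM with ZEB1, all above the controls (log2 fold change 0.26, SE 0.15).

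**Figure D3:**
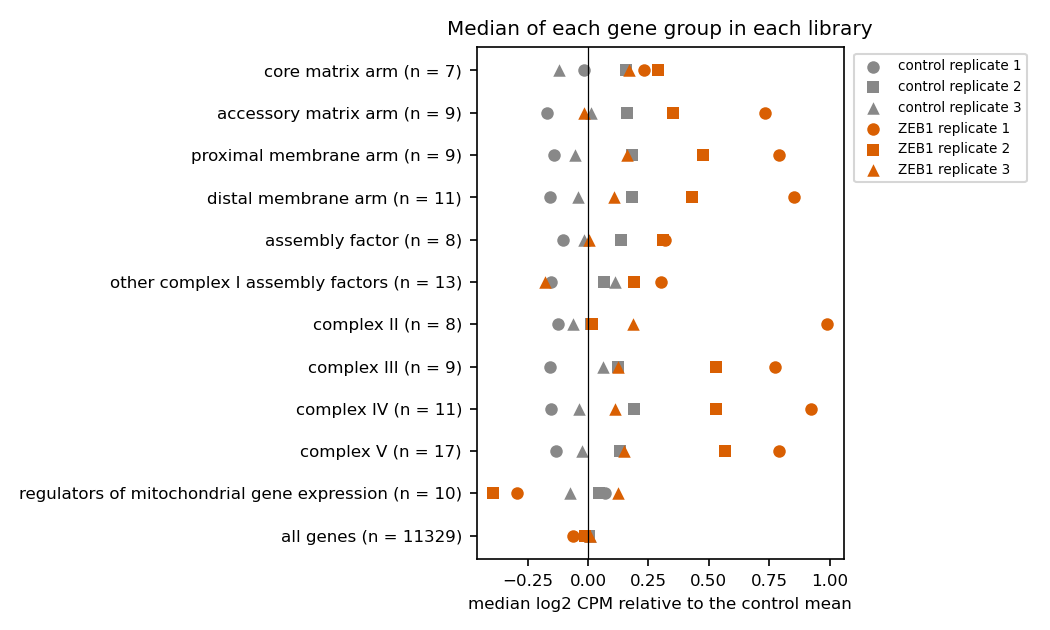
Each point is the median over 1 gene group in 1 library, as log2 CPM relative to the mean of the 3 controls (grey controls, orange ZEB1 libraries), with n the number of tested genes. The medians of ZEB1 replicates 1 and 2 were 0.76 and 0.38 for complex I as a whole, those of the core matrix arm 0.23 and 0.29, and in complexes III to V, as in the membrane arm, ZEB1 replicate 1 had the highest median of the ZEB1 libraries and replicate 3 the lowest.

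Complex I transcripts are short, and the shortest transcripts of other genes also had a higher median in these ZEB1 libraries. The tested members had a median transcript length of 791 nt, against 2522 nt over all tested genes, by GENCODE v29. When tested genes were divided by length into 10 equal groups, the shortest group, up to 1020 nt, held 28 of the 45 members. In that group the other genes had a median log2 fold change of 0.25 and the members 0.52. In the next group, from 1021 to 1471.5 nt, the other genes had a median of 0.059 and the 5 members 0.44. The median of the other genes in the shortest group, relative to the controls, was 0.44, 0.26 and 0.10 in ZEB1 replicates 1, 2 and 3, the same order of these 3 libraries as for the members. With each library's smooth trend with transcript length removed, the median of the members was 0.19, against -0.045 over all genes, with 13 members higher (4.77% of all genes in that fit) and 2 lower (4.51%) by unadjusted limma p under 0.05. By adjusted p, 0 members were called (0.00898% of all genes). NDUFB6 and NDUFC2 then had log2 fold changes of 0.69 and 0.70, and the 2 lower ones were NDUFS8 (-0.47) and NDUFA6 (-0.31). Across the 45 members, the Spearman correlation of log2 fold change with length was -0.40 (-0.16 across 11140 tested genes with a length). These genes share their libraries and are not independent.

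**Figure D4:**
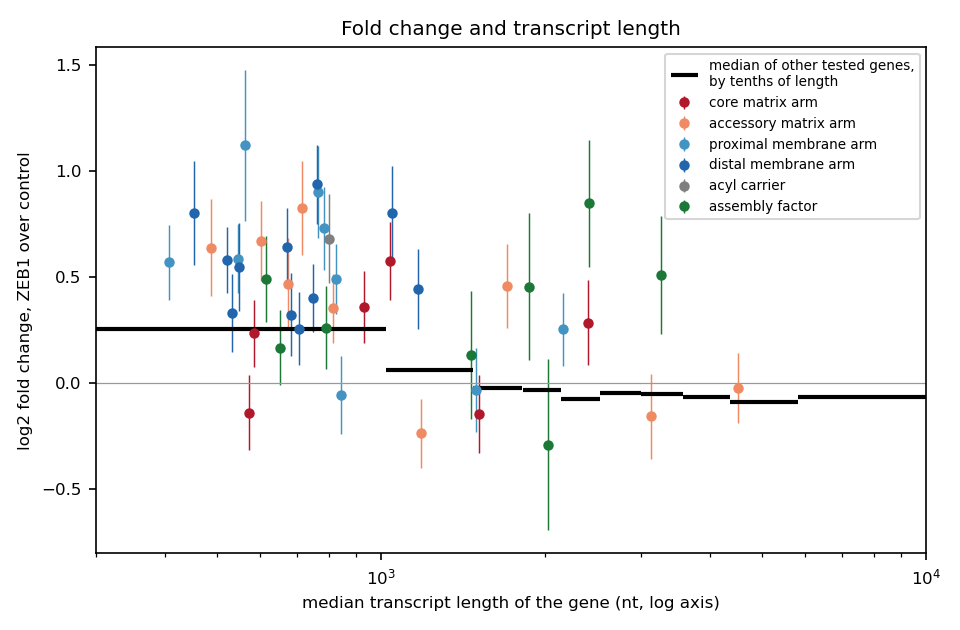
Points are 44 tested members, placed by the median length of their GENCODE v29 transcripts (log axis) and their edgeR log2 fold change, with bars of 1 standard error. Black lines are the medians of the other tested genes in 10 groups of equal size by length, and the first and last group run past the ends of the axis. Most members lie in the shortest group, above its line at 0.25.

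The start regions of the genes are shown because ZEB1 binds DNA at E-boxes and because known regulators of mitochondrial genes bind close to the start. RefSeq windows of assembly GRCh38.p14, from 250 bases before to 50 after the start, were matched for 40 of the 46 genes. NDUFAF6, NDUFB5, NDUFB9, NDUFC2 and NDUFS5 were among those with no entry. Letters were searched on both strands. The 250 bases before the start are printed for the 2 members with the smallest p, 5′ to 3′ in the direction of the gene, with matches in capitals. The window of NDUFB6 held none of the 4 motifs searched, and that of NDUFA1 held the letters CTTCCGG, the reverse complement of the ETS motif CCGGAAG, which factors such as GABPA bind.
NDUFB6, chr9:32573160-32573409, minus strand: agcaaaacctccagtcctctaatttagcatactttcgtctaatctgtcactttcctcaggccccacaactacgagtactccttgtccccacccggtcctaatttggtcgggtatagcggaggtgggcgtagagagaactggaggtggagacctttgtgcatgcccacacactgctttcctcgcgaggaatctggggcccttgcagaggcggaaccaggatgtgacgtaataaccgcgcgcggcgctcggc
NDUFA1, chrX:119871582-119871831, plus strand: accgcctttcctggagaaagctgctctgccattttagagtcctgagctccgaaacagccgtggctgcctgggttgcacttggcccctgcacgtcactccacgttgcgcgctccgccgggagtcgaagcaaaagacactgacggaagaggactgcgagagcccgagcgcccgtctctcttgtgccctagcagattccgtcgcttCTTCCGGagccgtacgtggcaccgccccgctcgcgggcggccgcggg

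The E-box letters CACCTG, or CAGGTG on the other strand, were found in 5 of the 40 windows, or 12.5%, against 20.6% of all 27305 windows and 17.1% of those of tested genes. These 5 members, NDUFA3, NDUFB7, NDUFS3, NDUFS6 and NDUFS7, had log2 fold changes of 0.57, 0.33, 0.23, 0.35 and 0.57. Their median was 0.35, against 0.45 for the 34 tested members without the letters. Each is shown with up to 10 bases on either side and the E-box in capitals, and none shows that ZEB1 was bound.
NDUFA3, chr19:54102886-54102904, plus strand: cgagtaagtgCAGGTGccg
NDUFB7, chr19:14572176-14572201, minus strand: agagacacagCACCTGtcccgcctcc
NDUFS3, chr11:47578920-47578945, plus strand: ctcgctttctCACCTGcgttccctcc
NDUFS6, chr5:1801248-1801273, plus strand: aacgggtgacCACCTGaatcagagag
NDUFS7, chr19:1383930-1383955, plus strand: gcggtgctgtCAGGTGagcgcggcac

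YY1, a zinc finger factor, is known to bind near the start of many mitochondrial genes. Letters of its motif, AANATGGCG or CGCCATNTT on the other strand, were found in 10 of the 40 windows, or 25%, against 3.37% of all windows and 7.64% of those of tested genes. All 10 belonged to the matrix arm, where 10 of 15 windows held them, 5 of 6 in the core, and 0 of 16 windows of the membrane arm did. The split by arm was made after the matches were seen and was not tested. The motif holds the letters ATG, and in 7 of the 8 matches that read in the direction of the gene this ATG was an annotated start codon in GENCODE v29, so these letters also spell the start of the reading frame. The 10 members had a median log2 fold change of 0.32, against 0.49 for the 29 tested members without a match. Of the 10 matches, the 5 in core subunits are shown with up to 10 bases on either side and the motif in capitals. Those of NDUFS1 and NDUFV2 lie on the other strand.
NDUFS1, chr2:206159411-206159439, minus strand: tagccgaggcCGCCATATTgaataagcga
NDUFS3, chr11:47579079-47579107, plus strand: gcatctgagtAACATGGCGgcggcggcgg
NDUFS7, chr19:1383914-1383942, plus strand: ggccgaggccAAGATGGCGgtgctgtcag
NDUFS8, chr11:68030491-68030519, plus strand: tccccaaaccAACATGGCGgccccctaca
NDUFV2, chr18:9102730-9102748, plus strand: cagtgtggccCGCCATGTT

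Letters of the NRF1 motif were found in 3 windows, or 7.5%, against 2.58% of those of tested genes, in NDUFA8, NDUFAF5 and NDUFB4. The ETS letters CCGGAAG were found in 6, or 15%, against 20.7%. Members with and without these letters had log2 fold changes that overlapped, from -0.058 to 0.64 with the NRF1 letters and from 0.23 to 0.90 with the ETS letters.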

How the data were processed

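DRUG-seq libraries of TC28a2 cells, 3 with a control vector and 3 with a ZEB1 vector, were analysed from the raw counts per Entrez gene that the authors deposited. HISAT2, Subread, featureCounts and GRCh38 are named, per the submitters' processing notes. The sources used here do not state versions, annotation, strand or the handling of molecular identifiers, so counting limits, which cover counting error only, assume independent reads. RefSeq GRCh38.p14 named 27745 of 28395 IDs. Of the members, 20 are overlapped by another annotated gene and 21 have a named pseudogene (NDUFA5 and NDUFB4 have 12 each), so reads could have been lost or shared there.

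The test was edgeR's quasi-likelihood F test (version 4.0.16, R 4.3.3, robust, TMM, filterByExpr, group as the only term), two-sided, with Benjamini-Hochberg adjustment over 11329 genes. Standard errors were derived from the log2 fold change and F. Log2 CPM used a prior count of 2. DESeq2 1.42.0, limma 3.58.1, other scalings, filters, thinning to 1277632 counts, the replicate block, single libraries left out and a loess on log2 transcript length (span 0.5) were alternatives. The steps were tested on simulated counts. No 2 libraries of the same group agreed within sampling noise, and pairs across the groups were not compared.

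The members and lists were chosen with earlier results of these data known. Values per library are given for the 10 members with the smallest p, the core subunits and the 5 lowest log2 fold changes, and from each other list of the respiratory chain and its regulators the 2 genes with the smallest p are named. Some marker genes are named where tested, or where their counts were at or near 0. 1 member is counted in the totals and is not reported singly here.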

Additional observations from a re-analysis of the deposited data

How the results depend on the processing

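The median log2 fold change of the members stayed above 0 in all 20 alternatives, from 0.22 to 0.61 on leaving out single libraries and from 0.093 to 0.47 in the others. It moved by more than the spread of the ZEB1 libraries (SD 0.33, n = 3) with ZEB1 replicates 1 and 2 left out together, to 0.093. Calls over all genes, 1 in the main test, numbered 1 to 409 on leaving out single libraries (409 without ZEB1 replicate 3), 201 in DESeq2, 22 in limma-voom, 157 with quality weights, 127 without a low-count filter, 2 with ZEB1 replicates 1 and 2 left out, and 0 with ZEB1 left out of the table. Members called, 0 in the main test, numbered 0 to 17 on leaving out single libraries, 13 in DESeq2, 1 in limma-voom, 11 with quality weights and 8 without a low-count filter. DESeq2 adjusted over 1982 genes, against 11329 in the main test, so its counts do not stand on the same set of genes. Why these counts differed was not tested further.

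Members higher at an unadjusted p under 0.05, 25 in the main test (5.83% of all genes), numbered 15 to 28 on dropping single libraries. They numbered 15 without ZEB1 replicate 1 (4.39% of all genes), 15 without control replicate 1 (3.05%) and 28 without ZEB1 replicate 3 (8.59%). With the length trend removed they numbered 13 (4.77%). Members lower, 0 in the main test (3.57% of all genes), numbered 0 on leaving out single libraries (1.74% to 9.41%). They numbered 1 with library size alone (7.12%) and 2 with the length trend removed (4.51%). Members with all ZEB1 libraries above all controls, 11 in the main test (6.96% of all genes), numbered 11 to 27 on leaving out single libraries. They numbered 27 without ZEB1 replicate 3 (16.3% of all genes) and 24 without control replicate 2 (11.4%). Those below numbered 0 to 2 on leaving out single libraries (11.4% to 20.9% of all genes). With library size alone 1 lay below (12.5% of all genes did) and with the length trend removed 2 (7.5%). With ZEB1 replicates 1 and 2 left out, 14 lay above (26.5% of all genes) and 5 below (28.9%). Library size alone moved the median of all genes by -0.13 and that of the members to 0.32.

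Of the 44 members reported singly, 28 kept the sign of their log2 fold change in all alternatives. With ZEB1 replicates 1 and 2 left out the sign turned in NDUFV1 (0.16), NDUFA8 (0.14), NDUFA12 (-0.044), NDUFB1 (-0.040), NDUFB10 (-0.059), NDUFAB1 (-0.018), NDUFAF8 (-0.015), NDUFB7 (-0.088), NDUFS4 (-0.023), NDUFAF2 (-0.17), NDUFAF4 (-0.13) and NDUFAF6 (-0.00087). With the length trend removed it turned in NDUFS3 (-0.094), NDUFA9 (0.076), NDUFB10 (-0.026), NDUFB7 (-0.059) and NDUFAF2 (-0.12). With thinning it turned in NDUFAF1 (-0.11) and NDUFA10 (0.067), and with quality weights in NDUFA9 (0.0015). On leaving out single libraries NDUFV1 ran from -0.36 to 0.050, NDUFA8 from -0.20 to 0.067, NDUFA9 from -0.13 to 0.11, NDUFA10 from -0.21 to 0.068 and NDUFAF6 from -0.0020 to 0.66.

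No shared deviation of libraries with the same replicate number was seen, and the labels do not say whether such libraries were prepared together. Deviations of libraries with the same number correlated at -0.032, -0.0095 and 0.0087. With the replicate block 21 members were higher at an unadjusted p under 0.05 (4.43% of all genes), 0 were called and the median was 0.43. The standard error of a member's log2 fold change was 0.16 to 0.40. That is not a limit of detection, since larger differences also failed the adjusted threshold in the main test. Examples are NDUFB6 at 0.94 (SE 0.19) and NDUFC2 at 1.12 (SE 0.36).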

Other observations

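The control libraries also differed among themselves over complex I. Control replicate 2 held the highest CPM of the 3 controls in 37 of the 45 tested members, and control replicate 1 the lowest in 32. The membrane arm as a group had medians of -0.16, 0.18 and -0.047 in control replicates 1, 2 and 3, and complex IV -0.15, 0.19 and -0.037, in log2 CPM relative to the control mean. Among the ZEB1 libraries, replicate 1 held the highest CPM in 33 members and replicate 3 the lowest in 32.

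NDUFA4, singled out here for its symbol, was named for complex I and is now assigned to complex IV (COXFA4). It had 179.8, 227 and 189.6 CPM in the controls and 488, 374 and 222 CPM with ZEB1, a log2 fold change of 0.85 (SE 0.21, edgeR adjusted p = 0.183).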
